A study of Homo sapiens with 4 samples.

Results

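The early growth response (EGR) genes, the NR4A nuclear receptor genes, the immediate early response (IER) genes IER2, IER3 and IER5, and KLF6 were followed through knockdown of PTPN1 in the Hodgkin lymphoma cell line KM-H2. The group was chosen by name, as 10 genes of the first wave of transcription after a stimulus: EGR1, EGR2, EGR3, NR4A1, NR4A2, NR4A3, IER2, IER3, IER5 and KLF6. Earlier results of these data were known when the group was chosen, so its counts below are a description. In the probe annotation 21 of 54675 probe sets belonged to 9 of the 10 genes alone, and EGR2 was not analysed here. Total RNA was hybridised to 4 Affymetrix arrays. For 2 arrays the KM-H2 cells had received small interfering RNA against PTPN1, and for the other 2 a non-silencing control. All cells were grown under standard conditions, and the sources used here give neither dose nor time after transfection. The submitters call both pairs of arrays technical replicates, all from 1 cell line, so errors and p-values below cover array-to-array spread and nothing about separate cultures.

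Immediate-early genes are transcribed within minutes of growth factor, cytokine or stress signals, without new protein synthesis, and most of their messages decay quickly. Many are switched on when mitogen-activated protein kinases act on serum response factor and its partners at serum response elements, or when CREB acts at cAMP response elements. PTPN1 encodes a tyrosine phosphatase that removes phosphate from JAK kinases and receptor tyrosine kinases, upstream of such signals.

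The stretch of 250 bases before the gene start was taken for 7 of the 10 genes, from RefSeq's GRCh38.p14 table. The stretches of EGR3, NR4A2 and IER3 are not analysed here. Of the 7 genes 4 are shown because they differ in the response elements for which these genes are known. They are written 5′ to 3′ on the gene's own strand, and capitals mark matches on either strand to the serum response element (CArG box), the cAMP response half-site TGACG, the full cAMP response element TGACGTCA, the AP-1 site TGANTCA, the EGR site GCGNGGGCG or the NR4A site AAAGGTCA. A full cAMP response element also counts as a half-site.
EGR1 (chr5:138465229-138465478, plus strand): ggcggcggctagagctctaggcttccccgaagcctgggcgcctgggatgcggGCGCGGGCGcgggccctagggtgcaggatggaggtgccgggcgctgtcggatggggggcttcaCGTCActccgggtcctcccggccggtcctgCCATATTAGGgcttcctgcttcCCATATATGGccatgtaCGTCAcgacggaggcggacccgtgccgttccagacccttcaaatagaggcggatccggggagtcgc
NR4A3 (chr9:99821635-99821884, plus strand): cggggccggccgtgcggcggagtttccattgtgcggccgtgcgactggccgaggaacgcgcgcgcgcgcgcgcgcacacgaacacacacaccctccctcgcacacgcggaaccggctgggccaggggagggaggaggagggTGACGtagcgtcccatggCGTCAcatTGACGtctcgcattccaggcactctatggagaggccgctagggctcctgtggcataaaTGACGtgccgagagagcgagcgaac
IER5 (chr1:181088450-181088699, plus strand): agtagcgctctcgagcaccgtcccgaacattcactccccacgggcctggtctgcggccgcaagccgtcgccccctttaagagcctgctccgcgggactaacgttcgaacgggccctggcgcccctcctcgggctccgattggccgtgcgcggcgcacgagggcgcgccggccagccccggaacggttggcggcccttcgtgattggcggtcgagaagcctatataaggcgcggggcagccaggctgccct
KLF6 (chr10:3785210-3785459, minus strand): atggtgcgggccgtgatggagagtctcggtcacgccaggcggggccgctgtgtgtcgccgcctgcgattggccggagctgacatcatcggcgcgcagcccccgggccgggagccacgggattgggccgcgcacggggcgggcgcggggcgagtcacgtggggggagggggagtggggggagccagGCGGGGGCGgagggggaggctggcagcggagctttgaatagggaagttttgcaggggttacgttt
The EGR1 stretch held 2 CArG boxes, CCATATTAGG and CCATATATGG, which began 105 and 83 bases before the gene start, together with 2 half-sites and 1 EGR site. The NR4A3 stretch held 4 half-sites between 109 and 21 bases before the start. In KLF6 the single match was an EGR site, and IER5 held none of the 6 motifs. Among all 35116 such stretches 1.16% held a CArG box, 21.2% a half-site and 8.42% an EGR site. Of the 7 genes 2 held a CArG box (EGR1 and EGR2), 4 a half-site (EGR1, EGR2, NR4A3 and IER2) and 2 an EGR site (EGR1 and KLF6). A gene was counted if any of its starts had a match, whereas the shares are per stretch. EGR2 and NR4A1 have several starts, and EGR2 matched at 1 of its 3. The full element, the AP-1 site and the NR4A site were found in 0 of the 7, against 1.65%, 6.57% and 1.045% of all stretches. A match describes letters only.

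PTPN1 transcript was lower on both knockdown arrays, at 46.8% of control by its brightest probe set, but this difference did not pass the test described below (limma adjusted p = 0.769), so 0 calls in it do not show that a gene did not differ. The 4 array medians lay between 5.10 and 5.12 on the log2 scale. Beta-actin probe sets from the 3′ and 5′ ends, whose gap tracks RNA quality and amplification, differed by 1.31 and 1.33 on the arrays numbered 1 and by 0.972 and 0.969 on those numbered 2. The 18S ribosomal RNA probe sets averaged 11.9 and 11.7 on the non-silencing arrays and 12.4 and 12.2 on the knockdown arrays. All 8 listed Hodgkin cell markers, among them TNFRSF8 (CD30), lay above 5.11, the median of all values, on every array. Their summed log2 values were 69.1 to 69.6 on the non-silencing arrays and 70.5 to 73.9 on the knockdown arrays. Summed markers ran from 26.9 to 29.0 and from 26.9 to 27.2 for B cells, from 26.9 to 27.2 and from 26.3 to 26.6 for T cells, from 21.8 to 22.9 and from 22.1 to 22.7 for myeloid cells, and from 23.0 to 23.5 and from 21.9 to 23.4 for fibroblasts. CD2, CD3E, LYZ, CD163, COL1A2 and COL3A1 lay below the median of all values on all 4 arrays, but the T cell markers CD3D and CD3G, the myeloid markers CD14 and CSF1R, and COL1A1 lay above it on all 4. The part of marker, ribosomal RNA or actin differences in the results below was not tested.

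No gene of the group passed the test. Each gene was represented by its brightest probe set among 19775 genes, and knockdown was compared with non-silencing by limma. Of the 9 measured genes, 0 had an adjusted p under 0.05, against 0% of all genes. EGR1 had an unadjusted p under 0.05 in limma, 1 of 9, against 2.57% of all genes. The adjusted p was 0.99996 for each of the 9 genes in limma, and an exact permutation of 2 against 2 arrays cannot give a p below 0.333. Both knockdown arrays lay above both non-silencing arrays for 3 of 9 genes, EGR1, IER3 and IER5, where 12.4% of all genes did so. Both lay below for 0 of 9, where 15% of all genes did so. The median log2 difference over the 9 genes was 0.13, against -0.0066 for all genes. Within array number 1 this median was 0.12 and within number 2 it was -0.025, and without knockdown array 1 it was -0.049. Differences were above 0 for 6 of 9 genes, against 48.2% of all genes. Within both numbers 4 of 9 lay above 0, EGR1, NR4A2, IER3 and IER5, against 27.8% of all genes, and KLF6 alone lay below 0, 1 of 9 against 29.8%.

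**Figure D1:**
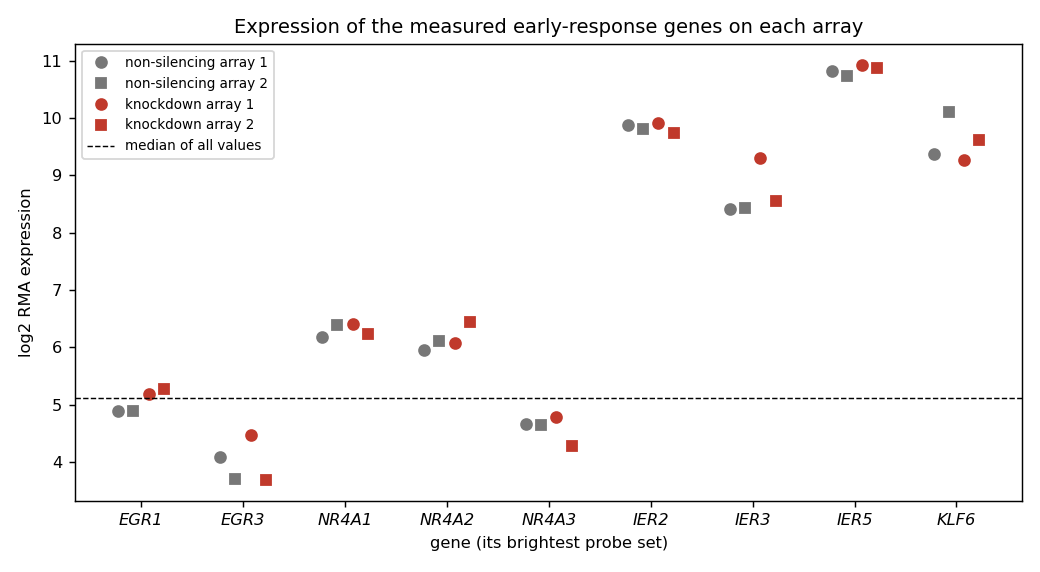
Log2 RMA expression of the 9 measured genes on each of the 4 arrays, each gene by its brightest probe set (grey, non-silencing; red, knockdown; circles, arrays numbered 1; squares, arrays numbered 2; dashed line, median of all values at 5.11). IER3 stood at 9.30 on knockdown array 1 and between 8.40 and 8.56 on the other 3 arrays, and KLF6 was highest on non-silencing array 2.

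EGR1 is a zinc finger transcription factor induced by mitogens, and its stretch before the gene start holds the CArG boxes shown above. It differed by nearly the same amount within both array numbers, but its signal was low. Its brightest probe set, 201694_s_at, read 4.89 and 4.89 on non-silencing arrays 1 and 2 and 5.19 and 5.26 on knockdown arrays 1 and 2. The groups therefore did not overlap, with both control arrays below the median of all values and both knockdown arrays above it. The log2 difference was 0.34 (SE 0.12, 95% interval 0.024 to 0.65), or 1.27-fold, with an unadjusted limma p of 0.039 and an adjusted p of 0.99996. Within number 1 it was 0.31, within number 2 it was 0.37, and without 1 array it ran from 0.30 to 0.38. The other EGR1 probe sets did not show it. Probe set 201693_s_at read 4.44 and 4.62 on the non-silencing arrays and 4.48 and 4.57 on the knockdown arrays, a difference of -0.0078. Probe set 227404_s_at read 4.53 and 4.57 against 4.72 and 4.55, a difference of 0.081. Both lay below the median of all values on every array, and in both the groups overlapped. With the mean of all 3 probe sets EGR1 differed by 0.14.

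EGR3, a relative of EGR1 that acts in lymphocyte activation, lay below the median of all values on all 4 arrays. Its only probe set read 4.08 and 3.71 on the non-silencing arrays and 4.46 and 3.68 on the knockdown arrays. The groups overlapped, and both arrays numbered 1 were above both arrays numbered 2. Its difference of 0.18 (SE 0.30, 95% interval -0.59 to 0.94) split into 0.38 within number 1 and -0.025 within number 2. Leaving out non-silencing array 2 gave -0.011, and leaving out knockdown array 1 gave -0.21.

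The NR4A genes encode orphan nuclear receptors, which act as transcription factors without a known hormone and are induced by antigen receptor and cAMP signals. NR4A2 (NURR1) was the member of this family with the same direction in every probe set. By 204621_s_at it read 5.90 and 5.80 on the non-silencing arrays and 6.11 and 6.05 on the knockdown arrays, so that the groups did not overlap. By this probe set the log2 difference was 0.23 (SE 0.13, limma adjusted p = 0.99996), with 0.20 and 0.25 within the numbers. By the brightest probe set, 204622_x_at, the arrays read 5.95 and 6.11 against 6.07 and 6.44. This overlap came from knockdown array 1, which lay between the control arrays. The difference was again 0.23 (SE 0.17, 95% interval -0.22 to 0.67), and it ran from 0.042 without knockdown array 2 to 0.41 without knockdown array 1. The remaining probe set, 216248_s_at, differed by 0.14, with overlapping groups. All 3 NR4A2 probe sets lay above 0 within both array numbers, as 27.7% of all probe sets did. They share the transcript and are not replicates.

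NR4A1 (NUR77), which is induced by antigen receptor signals in lymphocytes, showed no common direction. Its brightest probe set, 211143_x_at, read 6.17 and 6.39 on the non-silencing arrays and 6.41 and 6.23 on the knockdown arrays. The groups overlapped almost wholly. Group means differed by 0.042 (SE 0.15, 95% interval -0.34 to 0.43), which turned to -0.067 when non-silencing array 1 was left out and to -0.049 when knockdown array 1 was. The other probe sets, 202340_x_at and 210226_at, differed by -0.047 and -0.11. In all 3 probe sets the difference was above 0 within number 1 (0.027 to 0.24) and below 0 within number 2 (-0.28 to -0.12).

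NR4A3 (NOR1), whose stretch before the gene start holds the half-sites shown above, was dim, with all 3 probe sets under the median of all values on every array. The brightest, 209959_at, read 4.67 and 4.64 on the non-silencing arrays and 4.78 and 4.27 on the knockdown arrays. Here knockdown array 1 was the highest and knockdown array 2 the lowest of the 4. Its log2 difference was -0.13 (SE 0.20, 95% interval -0.64 to 0.39), and it was 0.13 without knockdown array 2. In probe set 216979_at the groups did not overlap, at 3.87 and 3.90 against 4.08 and 3.92, but the difference of 0.12 was 0.015 between the arrays numbered 2. The last probe set, 207978_s_at, differed by -0.021, and the mean of all 3 by -0.0099.

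IER3, an early-response protein that modulates cell survival and extracellular signal-regulated kinase activity, had the largest difference of the 9 genes. It read 8.40 and 8.43 on the non-silencing arrays and 9.30 and 8.56 on the knockdown arrays. Both knockdown arrays were above both controls, but knockdown array 2 stood much nearer to the controls than to knockdown array 1. The log2 difference was 0.51 (SE 0.26, 95% interval -0.16 to 1.19), or 1.43-fold, with a limma adjusted p of 0.99996. It was larger in size than that of 97.7% of all genes. Within the numbers it was 0.90 and 0.13. Leaving out knockdown array 1 gave 0.14, and leaving out knockdown array 2 gave 0.89. IER3 has 1 probe set, so no other probe set could be set beside it.

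IER5, a nuclear protein that acts with heat shock factor, and IER2, a nuclear protein induced by growth factors, were well above the median of all values on every array. IER5 read 10.82 and 10.73 on the non-silencing arrays and 10.93 and 10.87 on the knockdown arrays. The groups were apart by little. They differed by 0.13 on the log2 scale (SE 0.13, 95% interval -0.19 to 0.45), with 0.11 and 0.14 within the numbers, and 60.1% of all genes had a smaller one in size. Leaving out non-silencing array 2 gave 0.082. IER2 read 9.87 and 9.80 on the non-silencing arrays and 9.92 and 9.74 on the knockdown arrays, with the control values inside the span of the knockdown values. The IER2 difference was -0.0085 (SE 0.13), and its 95% interval of -0.35 to 0.34 leaves room for changes of up to that size either way. Its sign turned when non-silencing array 1 (0.025) or knockdown array 2 (0.078) was left out and when arrays were centred on their medians (0.0095).

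KLF6, a zinc finger factor of the Krüppel-like family that is induced early after many stimuli, had the lowest difference of the 9 genes. The brightest of its 5 probe sets, 1555832_s_at, read 9.38 and 10.11 on the non-silencing arrays and 9.27 and 9.61 on the knockdown arrays. Non-silencing array 2 was highest, and knockdown array 2 lay between the control arrays, so that the groups overlapped. The log2 difference was -0.30 (SE 0.28, 95% interval -1.02 to 0.42, limma adjusted p = 0.99996), or 81.2% of control. Leaving out non-silencing array 2 turned it to 0.064, and leaving out non-silencing array 1 gave -0.67.

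The bright KLF6 probe sets shared 1 pattern over the arrays. Besides the brightest, 208960_s_at read 7.45 and 8.14 on the non-silencing arrays and 7.42 and 7.59 on the knockdown arrays. Probe set 208961_s_at read 8.75 and 9.36 against 8.68 and 8.86, and 224606_at read 9.12 and 9.84 against 9.10 and 9.32. In all 4 the highest array was non-silencing array 2 and the lowest was knockdown array 1. The 4 differences ran from -0.30 to -0.26, with -0.11 to -0.013 within number 1 and -0.55 to -0.50 within number 2. The fifth probe set, 211610_at, lay below the median of all values on every array and differed by 0.086.

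**Figure D2:**
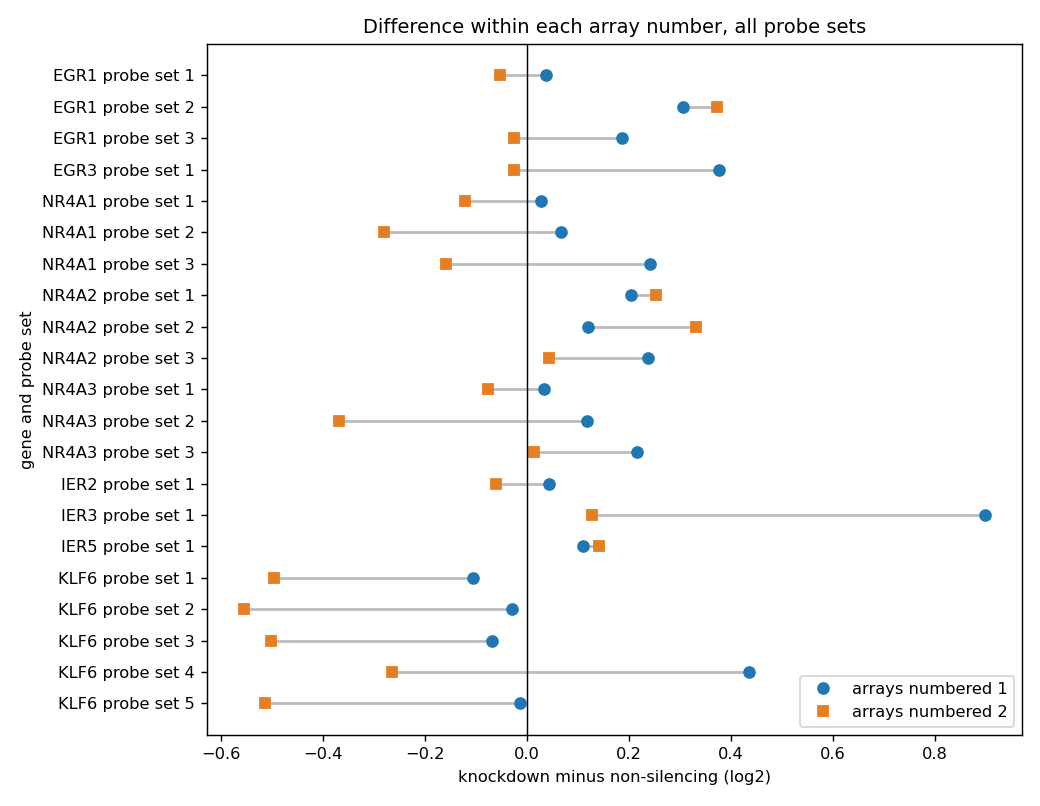
Knockdown minus non-silencing on the log2 scale for all 21 probe sets, within array number 1 (circles) and number 2 (squares), in the order of the probe set identifiers within each gene; grey lines join the values of a probe set. IER3 differed by 0.90 and 0.13, while 4 KLF6 probe sets lay between -0.55 and -0.50 in number 2 and near 0 in number 1.

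Over all 21 probe sets, differences ran from -0.30 to 0.51 with a median of 0.042, and 0 had a limma adjusted p under 0.05, as for 0% of all probe sets. EGR1's 201694_s_at was the single probe set with an unadjusted limma p under 0.05, where 2.5% of all probe sets had one. The groups were apart, with knockdown higher, in 5 of 21, against 13.4% of all probe sets, and apart with knockdown lower in 0, against 15.3%. Within both numbers 7 of 21 lay above 0 and 4 below 0, the latter all in KLF6, where 27.7% and 28.5% of all probe sets did so. The other 10 changed sign with the array number. On all 4 arrays 7 probe sets lay below the median of all values, those of EGR3 and NR4A3, 2 of EGR1 and 1 of KLF6, and RMA compresses differences among such dim probe sets.

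IER3 had the widest range over the 4 arrays of the 9 genes, 0.90, and was therefore compared with all other genes for its pattern. Likeness was the Euclidean distance between log2 values, each minus the gene's own mean, over the 4 arrays, and these 4 values are the only basis of it. The nearest gene was IRF1, an interferon- and STAT-induced transcription factor, at a distance of 0.052. IRF1 read 7.89 and 7.86 on the non-silencing arrays and 8.78 and 8.05 on the knockdown arrays, high on knockdown array 1 as IER3 was. The next were SERPINA2, a serpin family gene (0.13), GALNT18, a glycosyltransferase gene (0.15), the long non-coding RNA LINC00304 (0.15) and RGS1, a regulator of G protein signalling (0.16). LINC00304 lay below the median of all values on every array, and SERPINA2 on all but knockdown array 1. RGS1 read 8.001 and 8.15 against 9.04 and 8.11, so that knockdown array 2 lay between its controls.

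**Figure D3:**
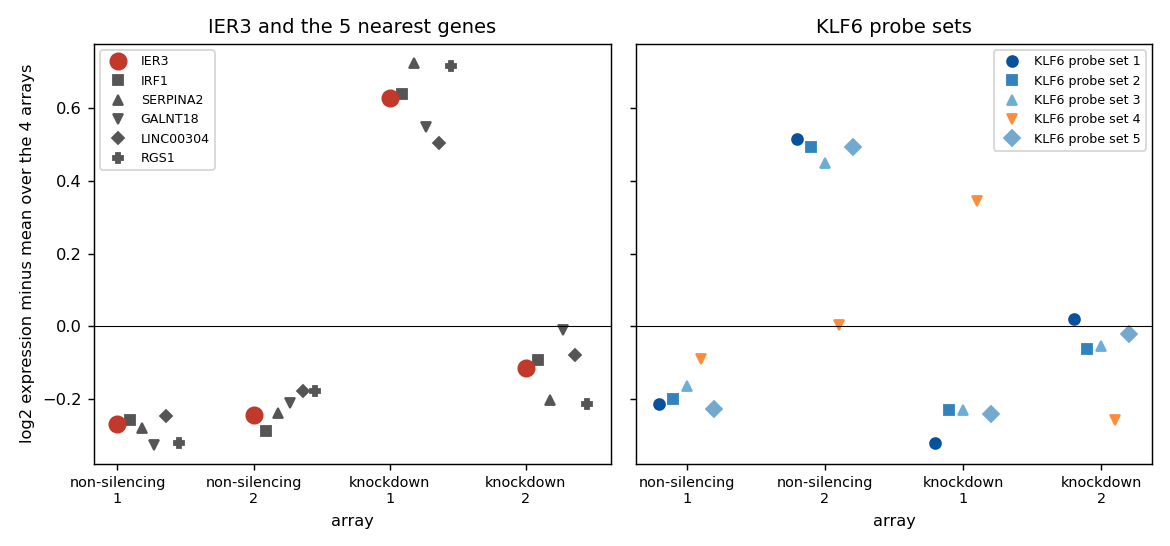
Log2 expression minus the mean over the 4 arrays, for IER3 and the 5 genes nearest to it (left) and for the 5 KLF6 probe sets in identifier order (right). IER3 and its neighbours are highest on knockdown array 1, whereas 4 KLF6 probe sets are highest on non-silencing array 2.

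Other immediate-early genes gave a related picture, with higher values mainly on knockdown array 1. Of 46 listed genes 45 were measured, and 0 passed the limma test at an adjusted p of 0.05. An unadjusted limma p under 0.05 was found for 3 of 45, against 2.57% of all genes. Of these RGS2 and JUN were higher with knockdown, and CD69 was lower. The median log2 difference was 0.089, with 0.24 within number 1 and 0.023 within number 2. Within both numbers 19 of 45 lay above 0, against 27.8% of all genes, and 10 of 45 below 0, against 29.8%. Summed log2 values over the 45 genes were 318.3 and 317.8 on the non-silencing arrays and 328.5 and 318.1 on knockdown arrays 1 and 2. At least 1.2-fold higher were 14 of 45, where 5.68% of all genes were, and at least 1.2-fold lower were 2 of 45, where 6.11% were. By the same measure EGR1 and IER3 were higher and KLF6 lower, 2 and 1 of 9. The groups were apart with knockdown higher for 9 of 45, against 12.4% of all genes, and with knockdown lower for 3 of 45, against 15%. The list was chosen with earlier results of these data known, so its counts are a description.

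RGS2, a regulator of G protein signalling, stood highest among the listed genes whose groups did not overlap. It read 9.55 and 9.62 on the non-silencing arrays and 10.52 and 10.08 on the knockdown arrays. This difference of 0.71 (SE 0.19) had a limma adjusted p of 0.99996. The growth arrest gene GADD45B differed by 0.47 and ZFP36, which encodes an mRNA decay factor, by 0.43, but between the arrays numbered 2 these were 0.15 and 0.058. JUN, the AP-1 subunit, differed by 0.33, with 0.24 and 0.42 within the numbers. The nuclear protein gene CSRNP1 and the antiproliferative gene BTG1 differed by 0.25 and 0.23, with tight values in both groups (SDs of 0.020 to 0.073). PTGS2, an inducible cyclooxygenase, differed by 0.30, and CD69, a lymphocyte activation marker, by -0.49, but both lay below the median of all values on every array. These genes are given by their brightest probe sets, and GADD45B, JUN, BTG1 and PTGS2 have others, not given here.

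**Figure D4:**
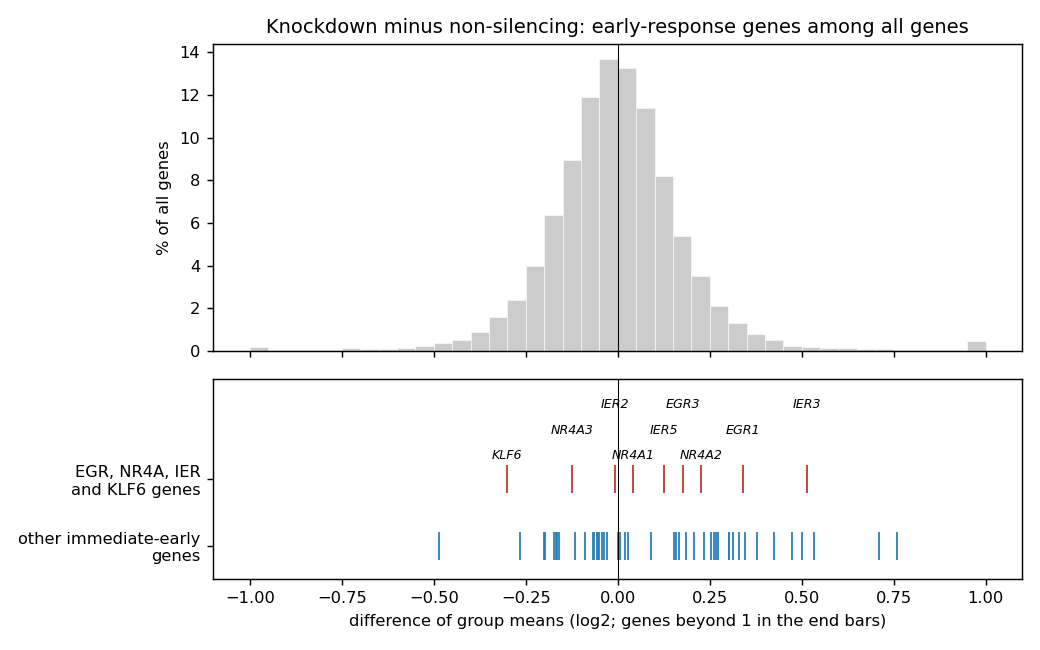
Distribution of the log2 difference between group means over all 19775 genes (bars, percent of genes per bin of width 0.05; genes beyond 1 are in the end bars), with the 9 measured genes (red ticks) and 45 other immediate-early genes (blue ticks). The 9 genes run from KLF6 at -0.30 to IER3 at 0.51.

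NAB1 and NAB2, corepressors that bind EGR proteins, and the RXR genes, whose products pair with NR4A1 and NR4A2, had a median difference of 0.099 over 5 genes, 0 of which passed in limma or had an unadjusted p under 0.05. NAB2, itself a known EGR target, differed by 0.10. RXRA read 8.87 and 8.52 on the non-silencing arrays and 8.48 and 8.42 on the knockdown arrays, a difference of -0.25 (SE 0.16). It was the 1 of 5 whose groups were apart with knockdown lower, against 15% of all genes. Apart with knockdown higher were 0 of 5, against 12.4%. Among 13 of the 15 listed upstream factors that were measured, the median was 0.060, and 0 passed in limma or had an unadjusted p under 0.05. SRF, the factor that binds CArG boxes, read 7.36 and 7.29 against 7.54 and 7.42, a difference of 0.15 (SE 0.13). The CREB coactivators CRTC2 and CRTC1 differed by 0.20 and 0.11, and these with SRF were the 3 of 13 whose groups were apart with knockdown higher, against 12.4% of all genes. For 0 of 13 the groups were apart with knockdown lower, against 15%. At least 1.2-fold lower were 2 of 13, ELK4 and MEF2C, against 6.11% of all genes, and 0 of 13 were at least 1.2-fold higher, against 5.68%. ELK4, a partner of SRF at serum response elements, differed by -0.33, with -0.40 and -0.25 within the numbers, and MEF2C, a factor that acts in B cells, by -0.27, with -0.37 and -0.17. MEF2D, of the same family, differed by -0.22. These 3 had overlapping groups and were named after their values were seen.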

How the data were processed

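The authors deposited log2 expression values. RMA is named as their source in the submitters' processing notes, without software or version. It removes background, equalises the arrays' distributions and combines the probes of each probe set. Per the labels' protocols, cRNA was amplified in 2 cycles, which can favour 3′ ends. Arrays were grouped, and numbered, by their titles.

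Probe sets were named from the platform's annotation, with symbols updated by gene identifier through RefSeq (GRCh38.p14). Of 54675 probe sets 62 were controls, 41091 had 1 symbol, 1801 several and 11721 none; only those with 1 were used for genes. A gene's brightest probe set by its mean stood for it, and all probe sets were fitted separately. Differences were tested, two-sided, in limma 3.58.1 under R 4.3.3 (lmFit, eBayes, no covariates, Benjamini-Hochberg over all features, threshold 0.05), with 2 arrays in each group limiting precision. Named from the wider list were the 8 genes with the largest differences among those with the groups apart, and up to 4 from each other list. Members and lists were chosen with earlier results of these data known. BTG2, MEF2B and ATF1 are not analysed here.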

Additional observations from a re-analysis of the deposited data

How the results depend on the processing

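No member passed in limma under any alternative run: quantile normalization, centring, other choices of probe set, a filter on dim genes (6 of 9 members kept), another variance model, a replicate block or leaving out each array. Genes past the threshold numbered 0 of all genes, but 3 with trend and robust variance, 72 with the replicate block, and 0 to 1 without 1 array. Over all probe sets the count was 164 with the block and 0 to 1 without 1 array. Same-numbered arrays deviated together (r = 0.65 over genes), but no label says that a number marks a batch. With the block the lowest adjusted p among members was 0.369, for EGR1, and PTPN1 itself passed with it (0.0251) but not without it (0.769).

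Without 1 array the members' median ran from -0.049 to 0.15, members higher with the groups apart from 3 to 7, and such listed genes from 13 to 24, where fewer arrays can overlap. Of 105 differences of single members under alternatives 15 changed sign, but some of the 105 could not change. These are the differences with the replicate block or the filter on dim genes. For genes with 1 probe set, those under the other choices of probe set are also fixed. The choice without an x or s suffix took the same probe set as before for EGR1, NR4A2 and NR4A3, so theirs were fixed there too. NR4A1 was -0.037 with the mean of all probe sets, -0.11 with the brightest probe set without an x or s suffix and -0.16 within number 2. IER2 was 0.0095 with centring and 0.044 within number 1, and NR4A3 was 0.12 within number 1. Within number 2 EGR3 and the members' median were both -0.025. Without 1 array EGR3 ran from -0.21 to 0.57, NR4A1 from -0.067 to 0.15, NR4A3 from -0.38 to 0.13, IER2 from -0.095 to 0.078 and KLF6 from -0.67 to 0.064. Apart from fewer arrays, the cause of these changes was not tested. Quantile normalization changed no member's sign.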

Other observations

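Several listed immediate-early genes outside those named above, chosen after their values were seen, differed within array number 1 and hardly, or the other way, within number 2. The serum- and glucocorticoid-regulated kinase gene SGK1 differed by 0.80 and -0.26 on the log2 scale, and the salt-inducible kinase gene SIK1 by 0.66 and 0.036. The survival gene MCL1 differed by 0.54 and -0.0021, and the polo-like kinase gene PLK3 by 0.56 and -0.044. The pseudokinase gene TRIB1 differed by 0.35 and -0.46. Within both numbers 19 of the 45 measured genes lay above 0, against 27.8% of all genes, and 10 below 0, against 29.8%. Among those above, the MAP kinase phosphatase genes DUSP4 and DUSP6 differed by 0.90 and 0.62 and by 0.48 and 0.15. The Notch target HES1 differed by 0.82 and 0.25, and MYC by 0.59 and 0.17. Among those below, CREM differed by -0.21 and -0.32, TIPARP by -0.11 and -0.24, and ARC by -0.21 and -0.19. FOSB, a partner of JUN in AP-1, differed by -0.0083 and 0.023, and KLF2, a Krüppel-like factor of lymphocytes, by -0.0072 and -0.066. The groups overlapped for every gene whose values are given in this paragraph, each by its brightest probe set. The difference between the numbers was not tested, since each combination of group and number has 1 array.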
